A study of Mus musculus with 6 samples.

Results

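The miR-200 family was represented by 5 of the 1080 small RNA entries listed for mouse N2A cells, namely miR-200a-3p, miR-200b-3p, miR-200c-3p, miR-141-3p and miR-429-3p. Its entries were found by name, as every mouse-named entry with the base name mmu-miR-200a, mmu-miR-200b, mmu-miR-200c, mmu-miR-141 or mmu-miR-429, whatever its arm or variant. Each of the 5 base names was found as a single entry from the 3p arm. No 5p arm of the family was listed, no entry named after another species carried these base names, and none of the 5 repeated the values of another row.

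N2A (Neuro2A) is a cell line from a mouse neuroblastoma, and all 6 small RNA sequencing libraries came from it. The si-NC group, 3 libraries, had been given a control siRNA, and the si-circCpsf6 group, also 3, an siRNA against the circular RNA circCpsf6. Both siRNAs were used at 100 nM with a lipid transfection reagent, and the comparison asks how miRNA levels differ when circCpsf6 is targeted. The level of circCpsf6 was not analysed here, so how far it was silenced is not given. The labels do not say whether replicates came from separate cultures, so a p-value covers no more than the library-to-library spread, possibly technical.

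miRNAs of this family bind messenger RNAs through their seed (bases 2 to 8) and are best known for repressing Zeb1 and Zeb2, transcription factors that switch off E-cadherin and drive the change from an epithelial to a mesenchymal state. Zeb1 and Zeb2 in turn repress the genes of the family, so that each side holds the other down. In the mouse nervous system the family is known from the olfactory epithelium, where it takes part in the differentiation of neurons.

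The mature sequences fall into a pair of seed groups, and they are shown because near-identical members share reads easily. Sequences are from RefSeq (GRCm38) and run 5′ to 3′, with the seed in capitals. Members with the seed AAUACUG are these:
miR-200b-3p: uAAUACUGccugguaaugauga
miR-200c-3p: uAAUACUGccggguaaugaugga
miR-429-3p: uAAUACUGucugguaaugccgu
Members with the seed AACACUG are these:
miR-200a-3p: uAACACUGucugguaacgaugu
miR-141-3p: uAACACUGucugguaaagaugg
Among the 1679 mature mouse miRNA names in the RefSeq table, the AAUACUG seed belonged to the 3 members shown and the AACACUG seed to the 2 shown. Positions being counted from 1 at the 5′ end, miR-200b-3p and miR-200c-3p differed over their 22 shared positions by U11G and A22G, and miR-200a-3p and miR-141-3p by C17A and U22G. Every other pair differed at 4 or 5 positions. How the authors assigned reads between such near-identical members is not given in the sources used here, so the split within these pairs is uncertain.

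The entries for miR-200a-3p, miR-200b-3p and miR-141-3p carried the suffix R+1, read here as 1 base more at the 3′ end than the reference. Their hairpins show which base that would be. Capitals mark the 3p arm with that added base:
miR-200a hairpin: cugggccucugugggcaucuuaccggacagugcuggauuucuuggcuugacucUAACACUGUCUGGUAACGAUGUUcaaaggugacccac
miR-200b hairpin: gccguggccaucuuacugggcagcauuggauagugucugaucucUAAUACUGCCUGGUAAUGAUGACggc
miR-141 hairpin: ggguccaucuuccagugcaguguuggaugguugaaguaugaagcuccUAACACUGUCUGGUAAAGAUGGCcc
The genes lie in a pair of clusters, both on the minus strand of GRCm38. The hairpins of miR-200b, miR-200a and miR-429 lie within 1846 bases at chr4:156053905-156055750, in an intron of the protein-coding gene Ttll10. Over the same stretch runs the noncoding transcript Gm13648, with the miR-429 hairpin in an exon and the others in an intron. The hairpins of miR-200c and miR-141 lie within 477 bases at chr6:124717914-124718390, in an intron of the antisense transcript Gm15884, and the miR-141 hairpin also overlaps an exon of Gm29008, an unverified transcript.

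Values are the authors' normalized read numbers, rounded to whole numbers, and the read depth behind them is unknown. They summed to between 2570449 and 3268351 per library. The lowest value that at least 10 entries shared was 19 in si-NC replicate 3 and from 2 to 4 in the other 5 libraries. In si-NC replicate 3, 502 of 1080 entries were listed at 0, against 200 to 333 in the others, and 16 entries lay above 0 but under 19, so a 0 there may cover a wider range of low levels. Of the 9 neuronal miRNAs read as markers of the labelled cell type, all were listed. Markers of other cell types were listed too, as given below, so being listed does not settle the cell type. miR-7a-5p, a neuroendocrine miRNA, ran from 88548 to 364458 and the brain-enriched miR-124-3p from 183 to 711. The lowest of the 9, miR-129-2-3p, had a mean of 45.5 over the 6 libraries.

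In N2A cells the miR-200 family was low, and each of its 5 members had a lower mean and a log2 change below 0 in si-circCpsf6 against si-NC. Of all 916 tested entries 44.3% had a log2 change below 0. Summed over the family, si-NC replicates 1, 2 and 3 had values of 197, 431 and 151, whereas si-circCpsf6 replicates 1, 2 and 3 had values of 62, 34 and 7. The lowest si-NC library thus lay above the highest si-circCpsf6 library. The group means were 260 ± 150 and 34.3 ± 27.5 (mean ± SD of 3 libraries, n = 3, here and in all means that follow), a 7.56-fold difference. It was 12.7-fold without si-circCpsf6 replicate 1, and between 5.07-fold and 9.15-fold when any other single library was left out. Per 1000000 of a library's summed values, the family held 64.7, 147 and 58.7 in the controls, compared with 21.6, 10.4 and 2.43 after si-circCpsf6, so the order of the libraries was the same after dividing by the total. No single member passed the test across all entries, as described below.

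**Figure D1:**
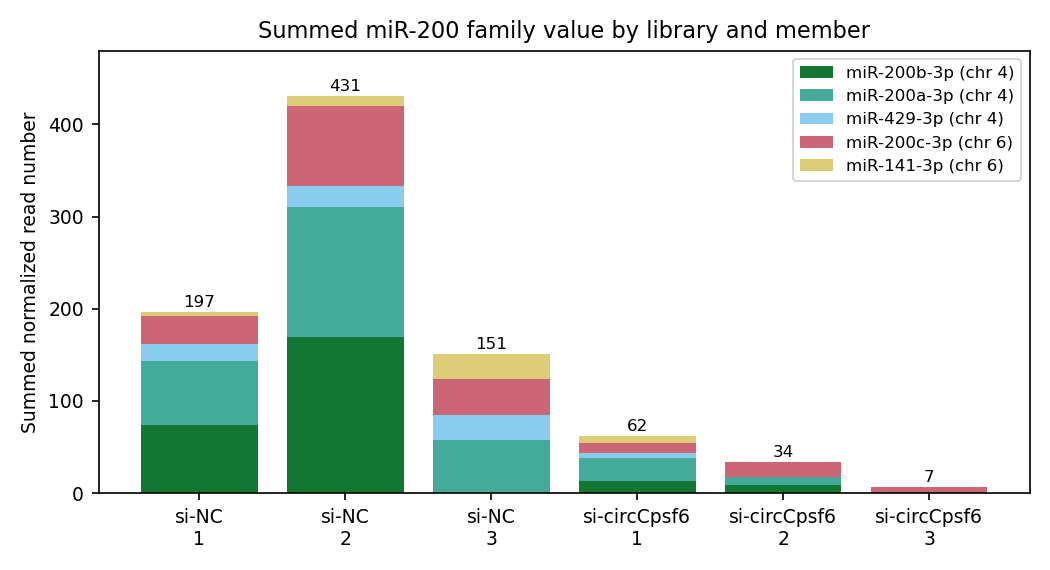
Summed normalized read number of the miR-200 family (y axis) in each of the 6 libraries (x axis), with each member as a stacked segment and the sum printed above each bar. The 3 si-NC bars stand at 197, 431 and 151 and the 3 si-circCpsf6 bars at 62, 34 and 7.

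The entry mmu-miR-200a-3p, of the chromosome 4 cluster, had the highest si-NC mean of the family. Its si-NC values were 69, 141 and 58, compared with 25, 9 and 0 after si-circCpsf6. All si-NC libraries were above all si-circCpsf6 libraries. Means were 89.3 ± 45.1 and 11.3 ± 12.7, a 7.88-fold difference that was 19.9-fold without si-circCpsf6 replicate 1. By mean si-NC value it ranked 386 of the 1046 entries left after repeats were merged.

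For mmu-miR-200b-3p, the neighbour of miR-200a, the control libraries gave 74, 169 and 0, whereas the si-circCpsf6 libraries gave 13, 9 and 0. The groups overlapped because of si-NC replicate 3, the library in which few values under 19 were listed. With all libraries the means were 81 ± 84.7 and 7.33 ± 6.66, so that the SD in si-NC exceeded its mean.

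The entry mmu-miR-429-3p, which lies in the same cluster and shares the seed of miR-200b, had the most even si-NC values of the family. They were 19, 23 and 27, against 6, 0 and 0 after si-circCpsf6. The groups did not overlap, and the means were 23 ± 4 and 2 ± 3.46. The value of 27 in si-NC replicate 3 stood close to the level under which that library listed few entries.

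On chromosome 6, mmu-miR-200c-3p was the member with a value above 0 in every library. The controls had 30, 87 and 39, and with si-circCpsf6 the libraries had 10, 16 and 7. These groups did not overlap either, with means of 52 ± 30.6 and 11 ± 4.58, a 4.73-fold difference that was 3.14-fold without si-NC replicate 2.

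The entry mmu-miR-141-3p, encoded beside miR-200c and sharing the seed of miR-200a, was the lowest member. Control values were 5, 11 and 27, those with si-circCpsf6 8, 0 and 0. Here si-NC replicate 1 lay under si-circCpsf6 replicate 1, so the groups overlapped, and the means were 14.3 ± 11.4 and 2.67 ± 4.62.

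**Figure D2:**
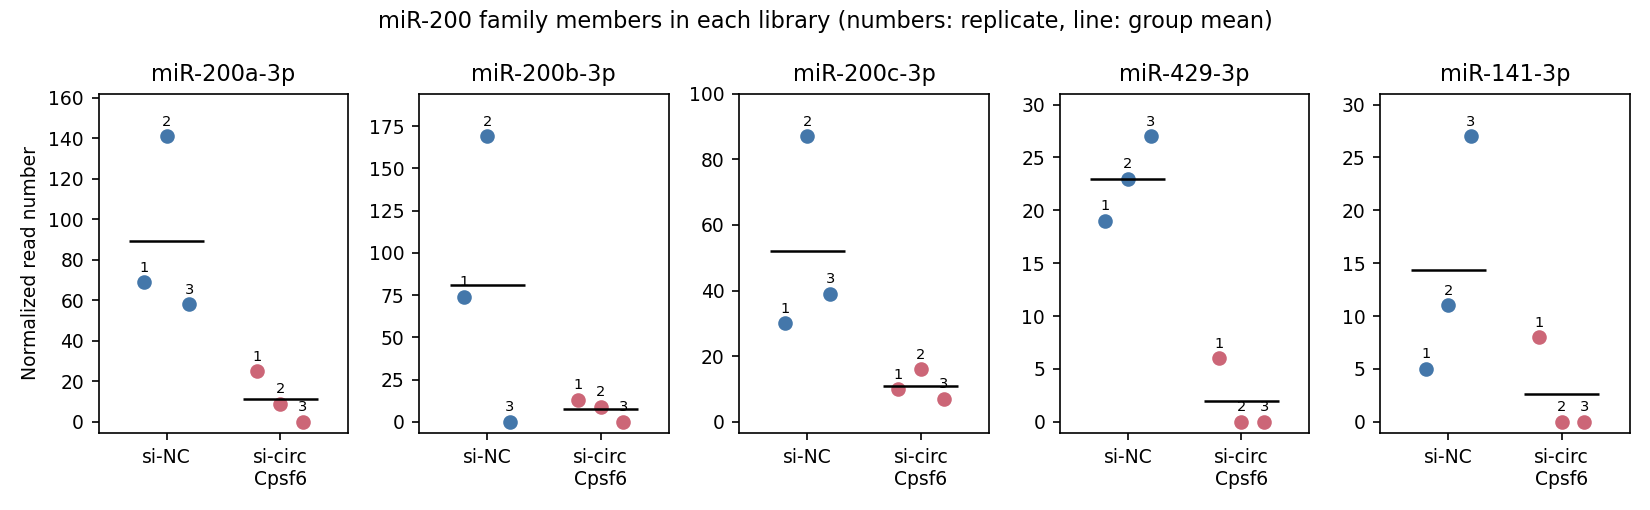
Normalized read number (y axis, a separate linear scale in each panel) of the 5 miR-200 family members in si-NC and si-circCpsf6, with 1 point per library numbered by replicate and a line at each group mean. The groups are apart for miR-200a-3p, miR-200c-3p and miR-429-3p and overlap for miR-200b-3p and miR-141-3p.

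By si-NC mean the order was miR-200a, miR-200b, miR-200c, miR-429 and miR-141, and neighbours in that order lay within each other's spread except miR-200c and miR-429, whose si-NC values of 30 to 87 and 19 to 27 did not overlap. miR-200b was above miR-200a in si-NC replicates 1 and 2 and at 0 in si-NC replicate 3. miR-141 was above miR-429 only in si-circCpsf6 replicate 1, and equal to it in si-NC replicate 3 and, at 0, in si-circCpsf6 replicates 2 and 3. In the si-NC replicates 0, 0 and 1 of the members stood at 0, and in the si-circCpsf6 replicates 0, 2 and 4. Of all tested entries, the si-NC replicates had 12.3%, 14.5% and 39.1% at 0, compared with 15.4%, 11.8% and 22.4% for si-circCpsf6, so the library with 4 members at 0 also had the most entries at 0 within its group. The part of these differences in listing in the family's result was not tested.

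Both clusters were lower in si-circCpsf6. Control sums of the chromosome 4 cluster were 162, 333 and 85, compared with 44, 18 and 0 after si-circCpsf6. Those of the chromosome 6 cluster were 35, 98 and 66, compared with 18, 16 and 7. Neither pair of groups overlapped, and the ratio of means was 9.35 for the chromosome 4 cluster and 4.85 for the chromosome 6 cluster. Without si-circCpsf6 replicate 1 the chromosome 4 ratio was 21.5, and without si-NC replicate 2 it was 5.98. Whether the ratios of the clusters differ was not tested. Of the family sum, the chromosome 4 cluster gave 82.2%, 77.3% and 56.3% in the controls, compared with 71.0%, 52.9% and 0% after si-circCpsf6.

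Grouped by seed, the family showed the same direction. Members with the AAUACUG seed had control sums of 123, 279 and 66, compared with 29, 25 and 7 after si-circCpsf6. Members with the AACACUG seed had 74, 152 and 85, compared with 33, 9 and 0. The ratios of means were 7.67 and 7.40. Without si-circCpsf6 replicate 1 they were 9.75 and 23.0, and without si-NC replicate 2 they were 4.65 and 5.68. A sum over a seed group does not depend on how reads were split inside it, for instance between miR-200b and miR-200c or between miR-200a and miR-141.

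Across the whole table no entry passed the test, so none of the 5 members did. Entries with a mean of at least 1 over the 6 libraries, 916 in all and including the 5 members, were tested by limma on log2(value + 1) with Benjamini-Hochberg adjustment. 0 of 916 (0%) had an adjusted p under 0.05, and 57 (6.22%) had an unadjusted p under 0.05. miR-429-3p had a log2 change of -3.64 (SE 1.06), with an unadjusted p of 0.00866 and an adjusted p of 0.364 by limma. For miR-200a-3p the log2 change was -3.71 (SE 1.21, adjusted p 0.459), and for miR-200c-3p it was -2.06 (SE 0.77, adjusted p 0.576). miR-141-3p stood at -2.60 (SE 1.21, adjusted p 0.735) and miR-200b-3p at -2.17 (SE 1.97, adjusted p 0.899).

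On this scale a value of 0 weighs heavily. The log2 change is a difference of mean log2(value + 1), and for miR-200b-3p the log2 of the ratio of means was -3.47 instead of -2.17. For miR-200a-3p it was -2.98 instead of -3.71. miR-200a-3p and miR-429-3p had the lowest and the next lowest log2 change of the 916 tested entries.

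Against the table as a whole, 3 of the 5 members (miR-200a, miR-200c and miR-429) had an unadjusted p under 0.05 and a lower value, as had 2.95% of tested entries. That number was 1 without si-NC replicate 2, where only miR-429 was left (unadjusted p 0.0835 for miR-200a, 0.0864 for miR-200c and 0.0281 for miR-429 by limma). It was 2 without si-circCpsf6 replicate 2, without si-circCpsf6 replicate 3 and with values under 20 set to 20, and 4 with array weights. The number stayed at 3 without si-circCpsf6 replicate 1, but with miR-141 in place of miR-200c. It also stayed at 3 without si-NC replicate 3, with miR-200b in place of miR-200a. With all libraries miR-200a, miR-200c and miR-429 had groups that did not overlap with si-circCpsf6 lower, as had 4.91% of tested entries. All 5 members had a log2 change of -2 or lower, as had 2.29% of tested entries. That cut lies close to the changes of miR-200c (-2.06) and miR-200b (-2.17). With a pseudocount of 5, miR-200b, miR-200c and miR-141 were at -1.92, -1.74 and -1.33. With values under 20 set to 20, every member was above -2. A narrower set held the 194 tested entries with a mean over all libraries in the range of the family, 8.50 to 50.3, the 5 members included. Of these, 2.58% had an unadjusted p under 0.05 and a lower value, and 3.09% had groups apart with si-circCpsf6 lower. A log2 change of -2 or lower was found for 4.64%, and one below 0 for 36.6%. The first 3 shares stand for 5, 6 and 9 entries, of which the family itself supplied 3, 3 and 5. The median log2 change was -2.60 over the 5 members, 0.086 over all tested entries and 0.56 over the 194 entries of like mean.

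**Figure D3:**
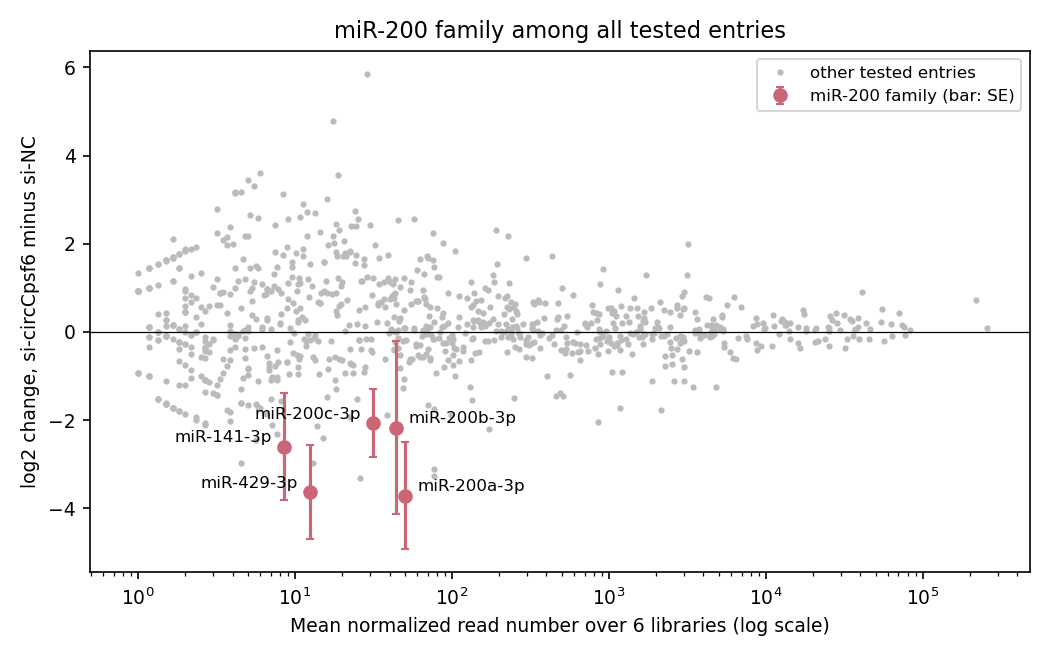
log2 change between the groups on the log2(value + 1) scale (y axis) against the mean normalized read number over 6 libraries (x axis, log scale) for 916 tested entries. The 5 miR-200 family members, drawn with their SE, lie between -2.06 and -3.71, at means of 8.50 to 50.3 where the other entries also spread most widely.

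The direction held under every alternative run, though several could not have changed it, while the size moved with the handling of low values. Other filters, the replicate block and repeats kept apart leave the log2 change itself as it was and alter only its error and p. The log2 change was below 0 for each member in all of its alternatives, 16 each and 15 for miR-141-3p, and no member had an adjusted p under 0.05 in any of them. With values under 20 set to 20, which removes differences below the level commonly listed in si-NC replicate 3, miR-200a-3p was at -1.89, miR-200b-3p at -1.62 and miR-200c-3p at -1.19. miR-429-3p and miR-141-3p were then at -0.20 and -0.14, since most of their values lie under 20. Their only values above 20 were in si-NC, so this setting could not have reversed their direction. miR-200c-3p, with a value above 0 in every library, ran from -2.38 to -1.62 when single libraries were left out. miR-200b-3p was the member most moved by a single library, at -4.44 without si-NC replicate 3. Leaving out si-NC replicate 2 gave -0.74, si-NC replicate 1 -1.33 and si-circCpsf6 replicate 3 -0.98. For miR-200a-3p the change was -2.38 without si-circCpsf6 replicate 3, where it is listed at 0.

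**Figure D4:**
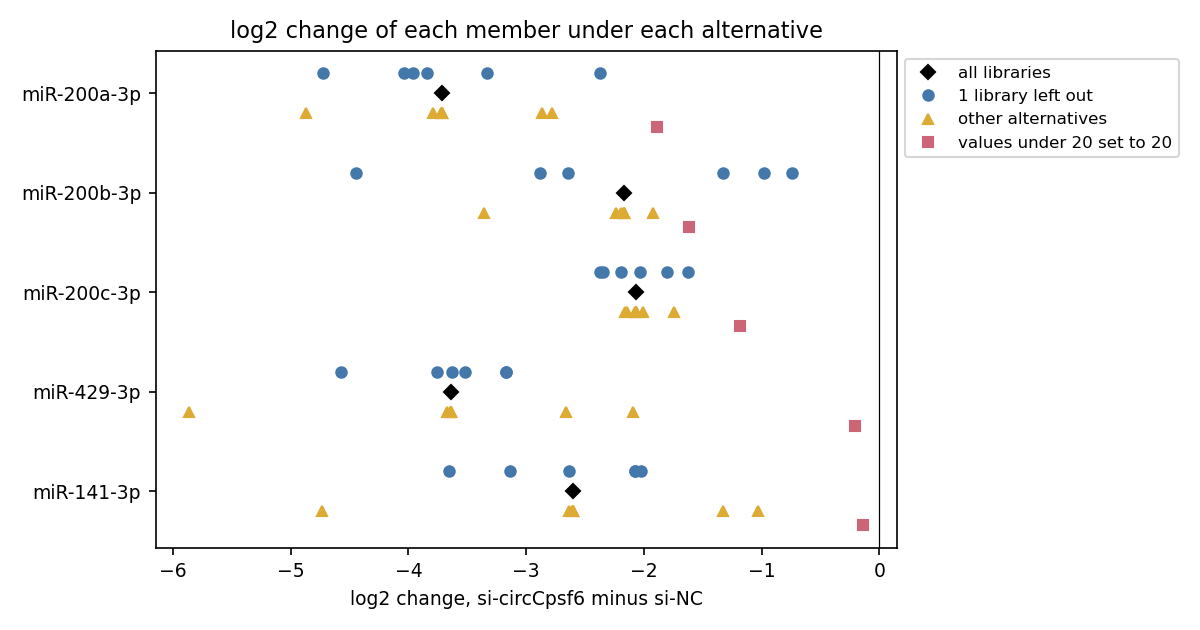
log2 change of each miR-200 family member (x axis) with all libraries, with 1 library left out, with values under 20 set to 20 and under the other alternatives. All points lie below 0. Those with values under 20 set to 20 run from -1.89 to -0.14 and lie nearest to 0 for every member except miR-200b-3p, which came nearer to 0 with single libraries left out.

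The authors' deposited table gave the same direction for the 5 members. It compares group means of the same 6 libraries, so this is no separate result. In that table the log2 fold change of group means was -3.59 for miR-429-3p, -2.96 for miR-200a-3p, -2.25 for miR-200c-3p, -2.46 for miR-141-3p and -3.49 for miR-200b-3p. The unadjusted p in the authors' deposited table was 0.0025 for miR-429-3p and between 0.0865 and 0.269 for the other members.

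Other miRNAs known from epithelia did not share one direction. Of 10 listed by name, 9 were tested, 6 with a log2 change above 0 and 3 below, and none passed the adjusted threshold. Of all tested entries 44.3% were below 0, here and for the lists that follow. The median of 0.44 was that of miR-215-5p, listed at 3, 0 and 0 in the controls and at 0, 9 and 0 after si-circCpsf6. miR-205-5p, miR-183-5p and miR-96-5p, also above 0, had means of 1.00, 2.17 and 3.17 over the 6 libraries. The counts and the median thus rest largely on values near 0. miR-203-3p, a miRNA of skin keratinocytes, had control values of 954, 1146 and 868, compared with 1055, 1253 and 1112 after si-circCpsf6 (log2 change 0.21, limma adjusted p 0.935). miR-205-5p, which represses Zeb1 and Zeb2 as the miR-200 family does, was listed at 0 in 5 libraries and at 6 in si-circCpsf6 replicate 2. miR-375-3p, an islet and neuroendocrine miRNA, had a mean of 165 in the controls and of 270 after si-circCpsf6. The lower ones were miR-182-5p, miR-192-5p and miR-194-5p. Control values of miR-182-5p were 204, 145 and 27, those after si-circCpsf6 106, 116 and 13, and its groups overlapped. miR-192-5p and miR-194-5p are processed together in liver and gut. Control values of miR-192-5p were 3753, 6565 and 2370, those after si-circCpsf6 1513, 2338 and 1613. Control values of miR-194-5p were 1158, 2105 and 1550, those after si-circCpsf6 838, 968 and 685. Neither overlapped between groups, at log2 changes of -1.12 and -0.92 and limma adjusted p-values of 0.553 and 0.528. Groups were apart with si-circCpsf6 lower for 4.91% of tested entries. In the other direction, miR-96-5p, of the sensory organ cluster with miR-182 and miR-183, was listed at 0 in each control and at 5, 4 and 10 after si-circCpsf6 (limma unadjusted p 0.0118, adjusted p 0.434).

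Mesenchymal and endothelial miRNAs, all 9 of which were tested, had 6 log2 changes above 0 and 3 below, with a median of 0.16 and none past the adjusted threshold. miR-143-3p and miR-145a-5p, known from smooth muscle and fibroblasts, had control means of 69667 and 9761, compared with 77164 and 12437 after si-circCpsf6. The means of miR-199b-3p were 4578 and 6804 in the same order, and those of miR-199a-5p 3300 and 5334. The 3 below 0 were miR-221-3p, miR-222-3p and miR-10b-5p, named here after their values were seen. Their log2 changes were -3.26, -1.65 and -2.13, and the groups of each overlapped. Those of miR-221-3p and miR-10b-5p lay within the range of the miR-200 family, -3.71 to -2.06. miR-221-3p had control values of 5, 83 and 340, compared with 6, 0 and 27 after si-circCpsf6, so its groups overlapped. miR-214-3p, also named after its values were seen and processed from the Dnm3os transcript, had control values of 651, 797 and 201, compared with 1131, 1482 and 1216. Its groups did not overlap, and at a log2 change of 1.43 it was the list's only member with an unadjusted p under 0.05 (0.0219, adjusted p 0.553 by limma). The groups of miR-199b-3p did not overlap either, with si-circCpsf6 higher. Of all 916 tested entries, 62 had groups apart with si-circCpsf6 higher. By limma, 30 had an unadjusted p under 0.05 and a higher value.

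miRNAs known to act beside Zeb or Snail factors were 12 by name, of which 10 were tested. Their log2 changes were above 0 for 8 and below 0 for 2, with a median of 0.17 and none past the adjusted threshold. The most abundant were of the miR-30 family, which represses Snai1. The control mean of miR-30d-5p was 60374, that after si-circCpsf6 65011. For miR-30b-5p these means were 37966 and 39057, for miR-30e-5p 36140 and 27970, and for miR-30a-5p 33169 and 37954. The 9 neuronal miRNAs had 5 log2 changes above 0 and 4 below, with a median of 0.11.

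**Figure D5:**
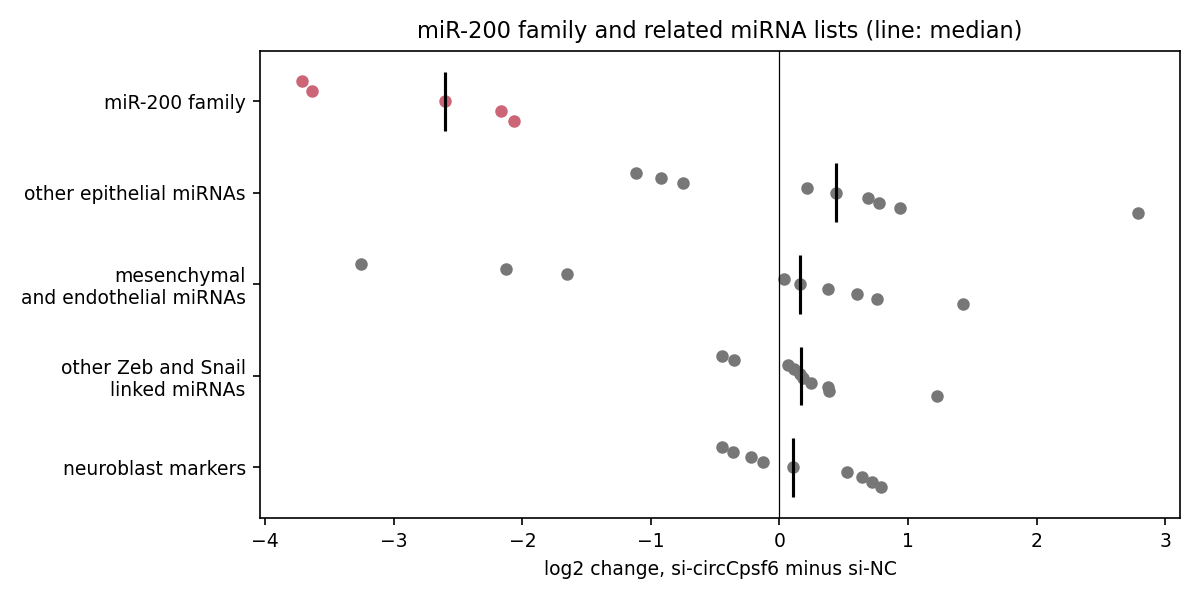
log2 change (x axis) of each tested miRNA in the miR-200 family, in 3 related lists and among the neuronal miRNAs, with a line at each median. The family median is -2.60, and the other medians lie between 0.11 and 0.44. The 0.44, of the other epithelial miRNAs, is the value of miR-215-5p, listed at 0 to 9 in the libraries.

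Markers of other cell types were also read. The summed blood and immune markers, 3 of 6 listed, ran from 27 to 46 in the controls, compared with 13 to 32 after si-circCpsf6, and no mouse-named entry was found under miR-142a, miR-223 or miR-486. The muscle markers, 2 of 3 listed, had control sums of 87, 132 and 49, compared with 72, 64 and 43 after si-circCpsf6. The liver marker miR-122-5p was listed at 5 in si-NC replicate 2 and at 0 elsewhere. The endothelial marker miR-126a-3p was far higher, with control values of 4117, 2931 and 3466, compared with 4301, 2869 and 3621 after si-circCpsf6. The epithelial markers were miR-203 and miR-205, whose values are given above. The 10 listed epithelial miRNAs outside the family, these included, had control sums of 6248, 10195 and 4911, compared with 3834, 4974 and 3653 after si-circCpsf6. Most of each sum came from miR-192-5p and miR-194-5p, both lower after si-circCpsf6. The marker miR-203-3p, next in abundance, had means of 989 in the controls and 1140 after si-circCpsf6. Of the 9 tested, 6 had a log2 change above 0 and 3 below, so the sums do not describe the list as a whole. Fewer cells carrying the family and less of it per cell cannot be told apart in these bulk libraries.

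Entries that most resembled the summed family value across the 6 libraries were ranked by Pearson correlation of log2(value + 1) among 619 entries with a mean of at least 10, as a description over libraries that include both groups. The 5 highest were a miR-194-5p variant named after platypus (r = 0.99), miR-615-5p (0.96), a let-7j variant (0.95), miR-146a-5p (0.92) and miR-669c-5p (0.90). The miR-194-5p variant had control values of 178, 264 and 158, compared with 86, 74 and 45 after si-circCpsf6. miR-615-5p, whose gene lies in the HoxC cluster, had 37, 44 and 27, compared with 13, 8 and 6. Neither of these had overlapping groups, with si-circCpsf6 lower as in 4.91% of tested entries. Both were chosen for likeness to a sum that separates the groups, so this is no separate result. Within the family, the correlation between members over the 6 libraries ran from 0.19 (miR-200b with miR-141) to 0.94 (miR-429 with miR-141), and neither of these pairs combines neighbours of 1 cluster.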

How the data were processed

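Small RNA libraries were made with the TruSeq small RNA kit from 1 ug of Trizol-extracted RNA, per the labels' protocols, and the genome build was mm9, per the submitters' processing notes. The aligner and the counting and normalization methods are not given. The deposited values are normalized read numbers, per the file headers, in whole numbers, and were treated as a score, not as counts. The authors also deposited a log2 fold change of group means and an unadjusted p-value.

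Of 1080 entries, 178 repeated the values of another row. A repeat was merged if 3 or more libraries held a value above 0 or if its name differed by the suffix alone, leaving 1046. The 916 with a mean of 1 or more were tested with limma 3.58.1 (trended variance, R 4.3.3) on log2(value + 1), group as the only term, Benjamini-Hochberg adjustment at 0.05. The fit was tested on simulated data with independent normal noise. These held no excess of zeros and no library like si-NC replicate 3, so they do not test how the fit handles either. Each listed miRNA entered as its most abundant entry. Members and lists were chosen with earlier results of these data known. From each list up to 4 abundant members were to be named, and miR-205, miR-124, miR-122, miR-221, miR-222, miR-10b, miR-214 and miR-96 were named beyond that rule, the last 5 for their values. miR-129, miR-182, miR-183 and miR-215 were also named after their values were seen. Sequences and positions are RefSeq and GENCODE M21 on GRCm38, not the authors' build, and all 5 members matched by name. Alternatives were other pseudocounts (0.1 and 5), filters, scalings, a replicate block, array weights, low values set to 20, repeats kept apart, and each library left out. Calculations used Python 3.11.15, numpy 2.4.6, pandas 2.3.3 and matplotlib 3.10.9.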

Additional observations from a re-analysis of the deposited data

How the results depend on the processing

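The number of entries with an adjusted p under 0.05, 0 with all libraries, was 31 with array weights and ran from 0 to 4 with single libraries left out, the 4 being without si-NC replicate 3. No miR-200 family member was among them. Entries with an unadjusted p under 0.05 were 27 lower and 30 higher, against 116 and 94 with array weights. With single libraries left out they were 18 to 82 lower and 30 to 50 higher (82 and 50 without si-NC replicate 3). With a mean of 10 or more required, 27 were lower and 19 higher, and with the replicate block 39 were lower and 48 higher. Same-numbered libraries deviated from their group means with correlations of 0.047, 0.48 and 0.40. Differently numbered libraries were not compared, so these values cannot settle whether the numbers pair the libraries. The labels do not say so, and the main test did not pair them. The array weights gave si-NC replicate 3 a weight of 0.146.

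The family's median log2 change, -2.60, was -4.74 with a pseudocount of 0.1 and -1.19 with values under 20 set to 20, and ran from -3.66 to -2.07 with single libraries left out. Rescaling left it at -2.64 and -2.61, with the median of all tested entries at 0.021 and 0.072. The ratio of summed family means, 7.56, ran from 5.07 to 12.7 with single libraries left out and was 7.87 and 7.65 after rescaling. miR-141-3p has a mean of 8.50 and had no value where a mean of 10 was required. With the read depth unknown, values near the lowest listed level cannot be given a counting error.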
